A study of Mus musculus with 15 samples.

Results

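Ribosome biogenesis is represented here by 39 nucleolar and ribosome assembly genes, taken by their names from an RNA-seq table of mouse embryos at the 2-cell stage. All 39 were found, 1 row each, among the 53023 genes of the table, on 16 chromosomes, and all are annotated as protein-coding. All 39 had a mean of at least 1 FPKM (fragments corrected for gene length and sequencing depth) over 6 libraries, as did 13443 genes in all. Every library was a pool of 5 ICR embryos collected at 32 hours post insemination. The study compared embryos whose nuclear actin filaments were disturbed by the actin mutant R62D, which does not polymerise, with embryos given wild-type nuclear actin and with embryos left uninjected.

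The 6 libraries form 3 pairs, and the labels contradict each other on what the pairs are. Pair A (libraries A1 and A2) has the title Wt and the annotation Non-injected. Pair B (B1 and B2) has the title R62D and the annotation actinWT-HA-NLS. Pair C (C1 and C2) has the title Non-injected control and the annotation actinR62D-HA-NLS, where HA is an epitope tag and NLS a nuclear localisation signal. Comparisons are therefore given between pairs, with both readings, and no difference is assigned to an agent. Injection of mRNA took place at 2 hours post insemination, so an injected embryo carried the expressed actin beside its own. Whether the 2 pools of a pair are separate experiments is not labelled, and p-values therefore cover only the spread among the pools sequenced. A second experiment of 9 libraries (Exportin 6 with R62D, actin G15S, and non-injected embryos, 3 libraries each) was not analysed here.

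Ribosomes are assembled in the nucleolus on a long precursor of ribosomal RNA made by RNA polymerase I. Small nucleolar ribonucleoproteins (snoRNPs) modify that precursor, the box C/D particles by methylation and the box H/ACA particles by turning uridine into pseudouridine. The small subunit processome then folds and cuts the part that becomes the 40S subunit, while other factors, among them the PeBoW complex of Pes1, Bop1 and Wdr12, act on the part that becomes the 60S subunit. Mouse zygotes hold compact nucleolus precursor bodies in place of working nucleoli, and synthesis of ribosomal RNA resumes around the 2-cell stage, so that messages left by the oocyte and newly made ones can both be present.

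The promoters of 5 genes are shown first, those of the genes on which the levels and differences below turn. They are Rcl1 and the genes of the core proteins of the box H/ACA particle. Mean levels of these H/ACA genes ran from 588 FPKM for Nhp2 to 11.0 FPKM for Gar1. Each window runs from 130 bases before to 20 bases into the transcript, 5′ to 3′, from RefSeq on GRCm38.p6, the assembly that mm10 stands for. Capitals mark a match to the ETS motif CCGGAAGT on either strand.
Nhp2, chr11:51619643-51619792, plus strand: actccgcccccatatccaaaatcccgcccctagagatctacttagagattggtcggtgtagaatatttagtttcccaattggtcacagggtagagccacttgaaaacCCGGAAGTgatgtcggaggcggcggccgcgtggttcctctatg
Nop10, chr2:112261796-112261945, plus strand: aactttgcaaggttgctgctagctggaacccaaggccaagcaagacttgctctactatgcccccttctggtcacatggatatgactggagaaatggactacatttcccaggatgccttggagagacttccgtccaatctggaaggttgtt
Dkc1, chrX:75095724-75095873, plus strand: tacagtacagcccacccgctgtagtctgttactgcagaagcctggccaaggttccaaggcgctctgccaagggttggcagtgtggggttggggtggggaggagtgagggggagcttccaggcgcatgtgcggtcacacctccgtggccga
Gar1, chr3:129831377-129831526, minus strand: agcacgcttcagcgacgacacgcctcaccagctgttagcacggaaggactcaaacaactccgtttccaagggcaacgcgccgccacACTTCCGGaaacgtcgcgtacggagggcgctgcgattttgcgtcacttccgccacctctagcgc
Rcl1, chr19:29101245-29101394, plus strand: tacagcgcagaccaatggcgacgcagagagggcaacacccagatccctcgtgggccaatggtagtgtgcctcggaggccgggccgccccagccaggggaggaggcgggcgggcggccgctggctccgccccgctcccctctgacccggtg
Gar1 and Nhp2 hold the ETS motif, in opposite orientations, and none of the 5 windows holds either of the other motifs searched (the E-box CACGTG and the NRF1 motif).

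RefSeq promoters of 300 bases, 250 before and 50 into the transcript, were matched for 35 of the 39 members. The E-box CACGTG, which reads the same on both strands and is bound by Myc and Max among other factors, was found in 8 of 35, or 22.9%. It was found in 10.7% of the 7341 promoters of genes tested and in 7.24% of all 27025 promoters. The ETS motif CCGGAAGT was found on either strand in 7 of 35 (Gar1, Heatr1, Ltv1, Nhp2, Nip7, Tsr1 and Utp3), or 20%, against 9.29% of the genes tested and 4% of all promoters. The palindromic core motif of NRF1 was found in 1 of 35 (Pno1), or 2.86%, against 2.22% and 0.977%. None of the 3 motifs contains another, and a match is a description of the sequence only.

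The 8 E-boxes are printed with up to 14 bases on each side because they are the motif match that the largest number of members has. Capitals mark the E-box, and the position is that of its first base, counted from 0 at the first transcribed base.
Imp4, chr1:34439694-34439727, plus strand, position -121: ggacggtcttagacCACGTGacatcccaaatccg
Nop2, chr6:125131809-125131842, plus strand, position -60: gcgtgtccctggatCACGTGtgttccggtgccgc
Pes1, chr11:3963963-3963994, plus strand, position 2: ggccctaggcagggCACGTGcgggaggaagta
Wdr43, chr17:71616218-71616237, plus strand, position 17: tgcgcccgggcgaaCACGTG
Tsr1, chr11:74898090-74898109, plus strand, position 24: gttcacttggtgcaCACGTG
Ltv1, chr10:13193104-13193123, minus strand, position 28: tagccctgtggaccCACGTG
Pno1, chr11:17211547-17211566, minus strand, position 37: gctgtacaaccacgCACGTG
Utp20, chr10:88826772-88826791, minus strand, position 37: agcggcactaactaCACGTG
The E-box of Imp4 and that of Nop2 lie before the start, and the other 6 lie within the first transcribed bases.

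The libraries held 907210 (C2) to 1555431 (C1) assigned reads, so that 1 read in a gene of 2 kb was worth 0.551 to 0.321 FPKM. Members received between 7 reads (Fbl in C2) and 1059 reads in a library, and limits set by these numbers cover counting error only. Libraries A2 and C2 stood apart from the other 4 on the first principal component of all genes (49.3 and 49.7 against -32.7 to -11.1, 28.7% of the variance), and values without them are given beside the differences with an unadjusted p below 0.05 among the members. Markers of the stage were present, with all 8 listed 2-cell genes and all 8 oocyte genes tested. Sperm markers summed to 0 to 1.5 reads and cumulus cell markers to 1 to 7 reads in a library. Blood markers summed to 6.5 to 73 reads, nearly all from alpha-globin genes, while Hbb-bs and Hbb-bt were at 0 reads in every library.

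The members were among the better expressed of the genes tested. The median of their mean levels was 27.3 FPKM, against 5.59 FPKM for all genes tested, and 36 of 39 lay above that second value. All members are protein-coding, whereas 8936 of the 13443 genes tested are, so the second median also covers other types of gene. Levels of the members ran from 2.39 FPKM for Utp20, a large scaffold protein of the processome, to 588 FPKM for Nhp2. Mean levels were above 100 FPKM for 9 members and under 10 FPKM for 9. The share of all reads that fell on the members was 0.643% in A1, 0.792% in A2, 0.633% in B1, 0.821% in B2, 0.719% in C1 and 0.798% in C2. It was lowest in A1 and B1. In pools of embryos, fewer cells of a kind and less RNA per cell cannot be told apart.

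**Figure D1:**
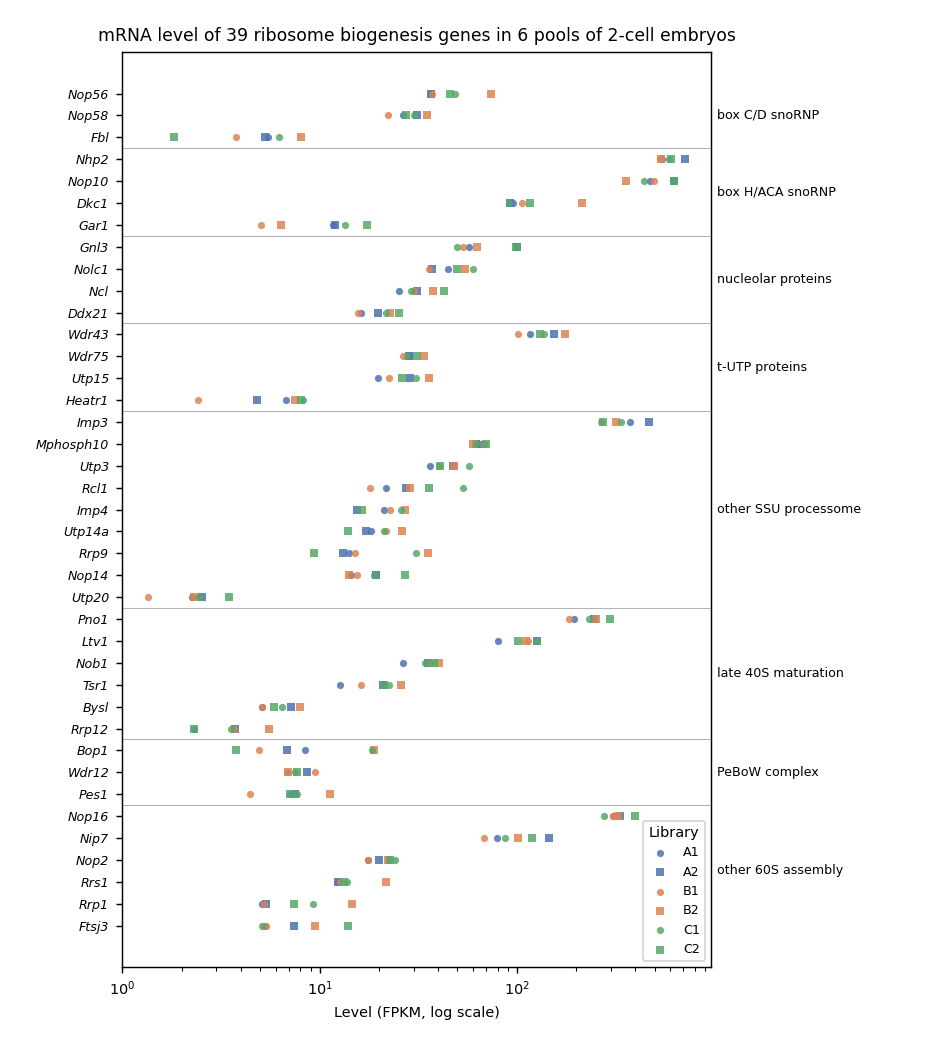
Level in FPKM (log axis) of each of the 39 members in the 6 libraries, coloured by pair, with members grouped by role. Within the box H/ACA particle the means run from 588 FPKM for Nhp2 to 11.0 FPKM for Gar1, and within the PeBoW complex from 10.2 FPKM for Bop1 to 7.53 FPKM for Pes1.

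The messages of the box H/ACA proteins were at unequal levels. In this particle, Nhp2 and Nop10, both small RNA-binding or scaffold subunits, had means of 588 and 504 FPKM. Dkc1, the pseudouridine synthase dyskerin, had 119.6 FPKM, and Gar1, which completes the mature particle, had 11.0 FPKM, 53.5 times less than Nhp2. With the length of the principal transcript in place of the gene length of the table, that ratio was 43.6. Nhp2 measured 546 and 709.5 FPKM in pair A, 533 and 537 in pair B, and 594 and 607 in pair C. Nop10 measured 474 and 630.3, 495 and 360.0, and 443 and 624 FPKM in the same order. For both, A2 was the highest library, and the pairs overlapped except for Nhp2 in pair B, which lay below both other pairs.

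Dkc1 stood at 96.2 and 92.2 FPKM in pair A, 106 and 215 in pair B, and 91.4 and 117 in pair C. Its highest value, in B2, came from 1059 reads. Library B1 was within the range of pair C, so the high mean of pair B rested on B2.

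The messages of the box C/D particle were led by those of its scaffold proteins, with 46.6 FPKM for Nop56 and 28.8 FPKM for Nop58. Fbl, the methyltransferase fibrillarin, had 5.12 FPKM, 9.10 times less than Nop56. The order depends on the gene length used, since the table's length exceeds the principal transcript 6.28 times for Nop58, 3.52 times for Fbl and 2.18 times for Nop56. On principal transcript lengths Nop58 led with 181 FPKM, followed by Nop56 with 102 and Fbl with 18.0. Across all 39 members the order of levels on the 2 lengths had a Spearman correlation of 0.956. Both levels come from the same reads, and the members share the same libraries, so this is a description only. Where several transcripts of a gene ranked equally as principal, the longest was used. Fbl is also uncertain because a processed pseudogene, Gm5812, matches 984 of the 1197 bases of its transcript at 96.9% identity and was itself listed at 6.97 FPKM. Fbl measured 5.50 and 5.31 FPKM in pair A, 3.76 and 8.05 in pair B, and 6.26 and 1.83 in pair C. The messages of all 3 proteins of the particle were highest in B2, which was the highest library for 19.5% of all genes.

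Nop56 measured 36.6 and 37.0 FPKM in pair A, 37.1 and 74.3 in pair B, and 48.7 and 45.9 in pair C. Pair A was below both other pairs, though B1 was hardly above it. Processed pseudogenes (Gm27219 at 9.06 FPKM among them) match 40.5% or less of its transcript at 95% identity or more. Nop58 measured 26.6 and 31.3, 22.3 and 35.3, and 30.2 and 27.4 FPKM, with pair B spanning all the other values.

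Among proteins that organise the nucleolus or open RNA in it, Gnl3 (the GTPase nucleostemin) had 70.5 FPKM, Nolc1 (the snoRNP chaperone Nopp140) 47.1, Ncl (nucleolin) 32.6 and Ddx21 (an RNA helicase) 20.2. On principal transcript lengths the order was the same, with 221 FPKM for Gnl3, 58.1 for Nolc1, 40.6 for Ncl and 22.2 for Ddx21. The table's length exceeds the principal transcript 3.13 times for Gnl3. By the table's length, Gnl3 measured 57.5 and 101 FPKM in pair A, 53.4 and 63.0 in pair B, and 49.6 and 98.7 in pair C. It was highest in A2 and C2, the libraries that stood apart. Ddx21, with 16.2 and 19.9, 15.7 and 22.6, and 21.6 and 25.3 FPKM, had its highest level in C2. For Nolc1 the values were 44.8 and 37.1, 35.8 and 54.7, and 60.2 and 49.9 FPKM, so pair C lay above pair A. Ncl ran from 25.3 FPKM in A1 to 42.6 in C2.

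The messages of the UTP proteins that join the precursor while it is transcribed had 136 FPKM for Wdr43, 29.4 for Wdr75, 27.3 for Utp15 and 6.30 for Heatr1. Heatr1, the largest of them, measured 6.77 and 4.80 FPKM in pair A, 2.42 and 7.49 in pair B, and 8.25 and 8.10 in pair C. Both libraries of pair C were above the other 4, B2 by the smallest margin. Wdr43 ran from 101 FPKM in B1 to 175 in B2, and Utp15 from 19.8 in A1 to 35.8 in B2. Wdr75 varied little, from 26.6 FPKM in B1 to 33.8 in B2. All 4 were above their own mean in B2 and below it in B1, where 52.9% and 52.4% of all genes tested were above theirs.

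The Mpp10 subcomplex of the processome brings the U3 snoRNP to the precursor and comprises Mphosph10, Imp3 and Imp4. Imp3 had 340.1 FPKM, Mphosph10 64.5 and Imp4 21.4, a spread of 15.9 times. On principal transcript lengths the spread was 10.8 times. The table's lengths are 924, 3700 and 8553 bases in this order. Reads in a library overlapped, at 228.5 to 486.5 for Imp3, 235 to 356.5 for Mphosph10 and 127.5 to 344 for Imp4. Mphosph10 was the steadiest of all 39 members, with 65.1 and 62.1 FPKM in pair A, 67.8 and 59.95 in pair B, and 61.9 and 70.0 in pair C. Its coefficient of variation over the 6 libraries was 5.99%, against a median of 22.2% for the members. Imp3 measured 375 and 471, 268 and 318, and 336 and 273 FPKM, so that pair A lay above all 4 other libraries. Another gene, 4933427G23Rik, matches 567 of the 924 bases of its transcript at 95.8% identity and was listed at 3.98 FPKM. Imp4 ran from 15.5 FPKM in A2 to 27.0 in B2. Of its length, 2.44% overlaps Gm28306 on the opposite strand, a gene listed at 81.1 FPKM.

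The other processome members lay between 2.39 and 44.9 FPKM. Rrp9, a protein of the U3 snoRNP, measured 14.1 and 13.1 FPKM in pair A, 15.1 and 35.4 in pair B, and 30.9 and 9.40 in pair C. Its high values were in 1 library of pair B and 1 of pair C, and its coefficient of variation was 54.4%. Utp3 ran from 36.2 FPKM in A1 to 57.0 in C1. Utp14a, which in yeast activates the helicase that removes U3, ran from 13.9 in C2 to 26.2 in B2, and 11.5% of its length overlaps exons of another gene. Nop14 ran from 14.1 FPKM in B2 to 27.1 in C2 and Utp20 from 1.36 in B1 to 3.46 in C2.

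Factors of the last steps of the 40S subunit covered 66.6 times between the highest and lowest. Pno1, the partner of the endonuclease Nob1, had 234 FPKM, Ltv1 109.9, Nob1 35.2, Tsr1 19.9, Bysl 6.27 and Rrp12 3.52. All 6 were below their own mean in A1, and all 6 were above it in A2 and in B2. Of all genes tested, 49.3%, 43.2% and 52.9% were above their mean in A1, A2 and B2. Pno1 ran from 183 FPKM in B1 to 298 in C2, and Ltv1 from 80.3 in A1 to 127 in A2. Nob1 was at 26.4 FPKM in A1 and at 34.3 to 40.3 in the other 5 libraries. For Tsr1, whose level ran from 12.8 FPKM in A1 to 26.0 in B2, 32.3% of the length overlaps Srr on the opposite strand, and the handling of strand is not given in the sources used here. Bysl and Rrp12 were low throughout, at 5.08 to 7.93 and 2.30 to 5.52 FPKM.

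The 3 messages of the PeBoW complex had nearly equal means over the 6 libraries. They were 10.2 FPKM for Bop1, 7.85 for Wdr12 and 7.53 for Pes1, a spread of 1.36 times. Single libraries were less equal, with 18.9 FPKM for Bop1 against 6.88 for Wdr12 in B2, and 3.78 against 7.68 in C2. The 3 genes also differed in how steady they were. Wdr12 was steady, from 6.84 FPKM in A1 to 9.51 in B1. Bop1 measured 8.48 and 6.86 FPKM in pair A, 4.95 and 18.9 in pair B, and 18.4 and 3.78 in pair C, and its coefficient of variation of 65.8% was the highest of the members. The same 2 libraries were high for Bop1 as for Rrp9, B2 and C1, with 56 and 71 reads against 8.5 to 21 reads in the other 4. Pes1 ran from 4.44 FPKM in B1 to 11.3 in B2, and a pseudogene that matches 60.4% of its transcript was listed at 0.541 FPKM.

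Of the other 60S factors, Nop16 had 325 FPKM, Nip7 100.2, Nop2 (a methyltransferase of ribosomal RNA) 20.8, Rrs1 14.4, Rrp1 7.82 and Ftsj3 7.75. All 6 were above their own mean in B2 and all 6 below it in A1 and in B1. Of all genes tested, 52.9%, 49.3% and 52.4% were above their mean in B2, A1 and B1. Rrp1 measured 5.09 and 5.36, 5.21 and 14.5, and 9.25 and 7.43 FPKM in pairs A, B and C. Rrs1, which in yeast brings the 5S ribonucleoprotein into the particle, was at 12.4 to 13.8 FPKM in 5 libraries and at 21.7 in B2. Ftsj3 ran from 5.09 FPKM in C1 to 13.9 in C2, and Nip7 from 67.9 in B1 to 146 in A2. Nop16 and Nop2 were steadier, at 276 to 397 and 17.7 to 24.2 FPKM.

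Genes for snoRNAs lie inside 7 of the 39 members (Wdr43, Dkc1, Gnl3, Nop56, Ncl, Nop58 and Tsr1), or 18.0%, against 2.05% of the 8936 protein-coding genes tested. They number 21 in all. Members with longer genes in the table had lower levels, with a Spearman correlation of -0.402 over the 39 members, which share the same libraries. For all protein-coding genes tested it was -0.221. FPKM is itself divided by this length, so some negative correlation can arise from the measure alone.

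Within pairs A and B most members differed in the same direction between the 2 libraries. In pair B, 34 of 39 members were higher in B2 than in B1, or 87.2%, against 50.0% of all genes tested. The median difference of B2 from B1 was 0.49 on the log2(FPKM + 1) scale. In pair A, 28 of 39 were higher in A2 than in A1, or 71.8% against 45.0%, with a median of 0.28. In pair C, 17 of 39 were higher in C2 than in C1, or 43.6% against 38.7%, with a median of -0.07. B2 was the highest of the 6 libraries for 18 members, or 46.2% against 19.5% of all genes. B1 was the lowest for 15, or 38.5% against 15.2%, and A1 was the lowest for 10, or 25.6% against 19.2%, and the highest for 0, against 16.1% of all genes.

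**Figure D2:**
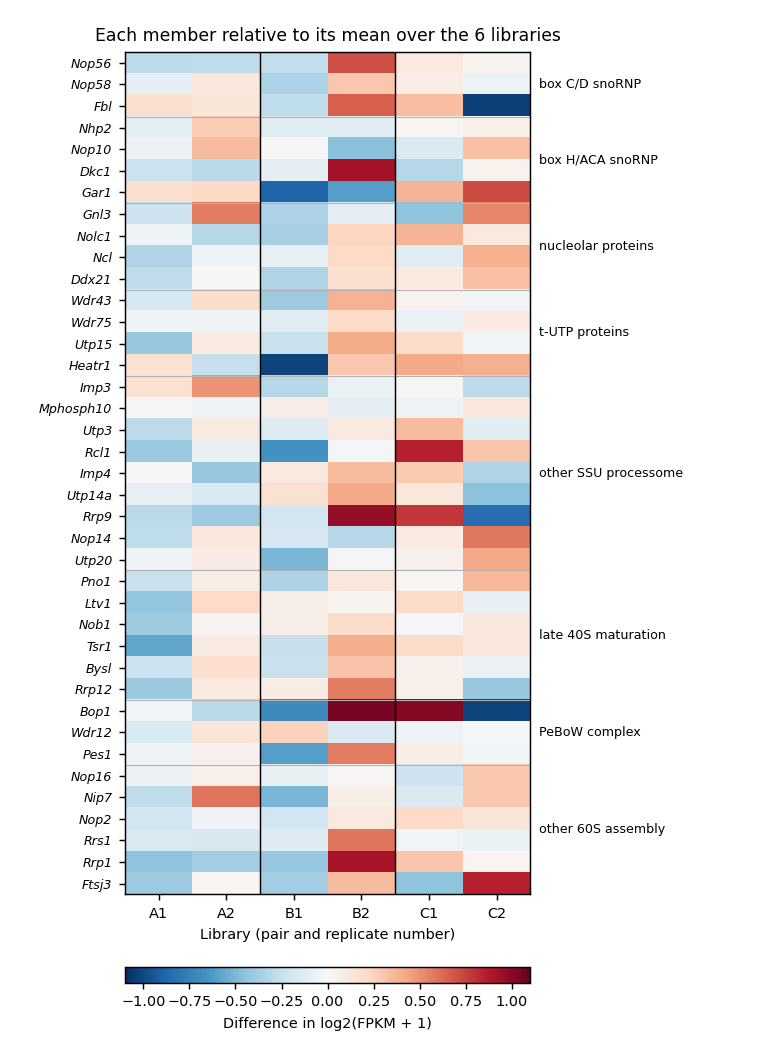
Difference of each member in each library from its own mean over the 6 libraries, in log2(FPKM + 1), with members in rows by role and libraries in columns. The columns of A1 and B1 are mostly below the mean, with 6 and 7 of 39 members above it, and the column of B2 is mostly above it, with 29 of 39. Of all genes tested, 49.3%, 52.4% and 52.9% were above their mean in A1, B1 and B2.

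Gene by gene, A1 and B1 were the 2 lowest libraries for 14 members, or 35.9% against 9.39% of all genes: Nop58, Utp3, Nop2, Nip7, Ddx21, Rrp1, Utp20, Pes1, Pno1, Tsr1, Utp15, Bysl, Wdr43 and Rcl1. B2 and C1 were the 2 highest for 12, or 30.8% against 12.5%: Rrs1, Imp4, Nop56, Utp3, Fbl, Rrp9, Rrp1, Pes1, Tsr1, Utp15, Bop1 and Nolc1. A2 and C2 were the 2 highest for 7, or 17.9% against 8.29%: Nop10, Nop14, Nip7, Utp20, Nhp2, Nop16 and Gnl3. These are counts over members that share their libraries, and no test was made of them.

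The median difference of the members from their own means was -0.21 in A1, 0.05 in A2, -0.25 in B1, 0.21 in B2, 0.06 in C1 and 0.05 in C2. For all genes tested it lay between -0.08 and 0.12. For 114 further genes of the pathway it was -0.08, 0.02, -0.16, 0.08, 0.16 and 0.01 in the same order, with the lowest value again in B1. The 83 cytoplasmic ribosomal protein genes had another order, with 0.28 and 0.20 in A2 and C2 and -0.21 to -0.02 in the other 4. Other gene lists also differed between libraries, and their orders were not all that of the members. Blood markers summed to 81.6 FPKM in A1 and 76.9 in B1, against 9.11 to 40.4 in the other 4, with 2 of the 6 markers tested. The 2-cell genes summed to 2256 FPKM in B2 and 1743 in B1, against 764 to 1407 elsewhere, and all 8 were above their own mean in B2. The 8 oocyte genes had medians of -0.67 in A2 and -0.50 in C2, against 0.19 to 0.53 elsewhere. The part of these in the members' levels was not tested.

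**Figure D3:**
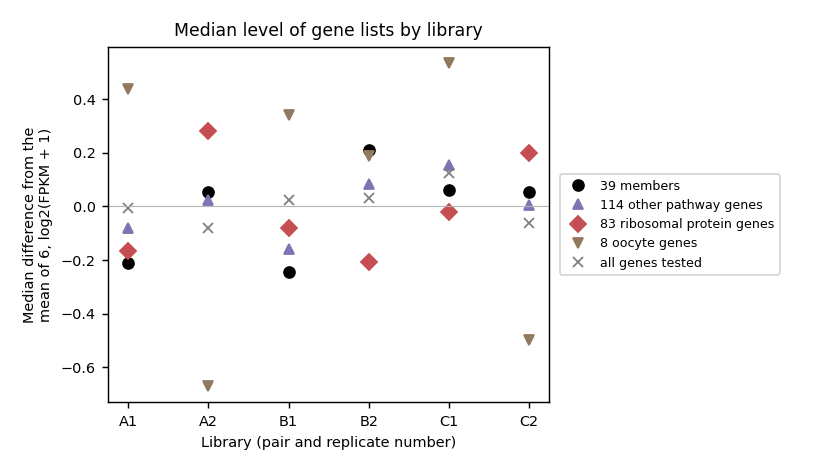
Median difference of 5 gene lists from each gene's own mean over the 6 libraries, in log2(FPKM + 1), by library. The members lie at -0.21 and -0.25 in A1 and B1 and at 0.21 in B2, while all genes tested stay between -0.08 and 0.12.

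Pair C was compared with pair B, which by the annotation sets R62D against wild-type actin and by the titles sets non-injected embryos against R62D. No member and no other gene passed an adjusted p of 0.05 in limma fitted to all genes (0% of 13443), and the smallest adjusted p of any gene was 0.167. At an unadjusted p below 0.05, 2 members were higher in pair C (Gar1 and Rcl1) and 0 lower, against 1.64% and 2.22% of all genes, or 3.85% together. The pairs did not overlap for 9 members, or 23.1%, where 30.2% of all genes did not. Pair C was the higher for Nhp2, Gar1, Heatr1, Rcl1, Nop14, Utp20 and Nop2 (18.0% of members against 15.5% of all genes), and the lower for Utp14a and Rrp12 (5.13% against 14.8%). The median log2 fold change was 0.05 over the members (0.33 without B2 and -0.08 without B1) and 0 over all genes, and 25 of 39 members had a value above 0, against 49.9% of all genes (18 without B1 and 19 without C1).

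Gar1 measured 11.7 and 12 FPKM in pair A, 5.07 and 6.35 in pair B, and 13.5 and 17.4 in pair C, from 20, 23, 11, 13, 36 and 27 reads. Both libraries of pair B were the lowest and both of pair C the highest, with no overlap. The means were 15.4 ± 2.73 FPKM in pair C and 5.71 ± 0.901 in pair B (SD, n = 2), a ratio of 2.70. The log2 fold change was 1.29 ± 0.34 (SE), with a 95% interval of 0.50 to 2.08, an unadjusted p of 0.00603 and an adjusted p of 1 in limma. With 1 library left out the fold change ran from 1.12 to 1.46, with unadjusted p from 0.0130 to 0.0396 in limma. In 4 of these 6 fits 1 of the compared pairs has a single library, which is assumed to vary like the other pairs. Without A2 and C2 the fold change was 1.12 (unadjusted p = 0.0768). That fit leaves 1 library in pairs A and C, and its spread between libraries comes from pair B and from the variance shared across genes. The Gar1 protein takes the place of the assembly factor Naf1 when the box H/ACA particle matures.

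Rcl1, a processome protein that yeast needs for cutting of the precursor, measured 21.6 and 27.4 FPKM in pair A, 18.0 and 28.8 in pair B, and 53.5 and 36.1 in pair C. Both libraries of pair C were above the other 4, while pairs A and B overlapped. The means were 44.8 ± 12.3 FPKM in pair C, 23.4 ± 7.64 in pair B and 24.5 ± 4.09 in pair A (SD, n = 2). The log2 fold change of pair C over pair B was 0.92 ± 0.37 (SE), with a 95% interval of 0.04 to 1.79, an unadjusted p of 0.0417 and an adjusted p of 1 in limma. It ran from 0.59 to 1.24 with 1 library left out, with an unadjusted p below 0.05 in 2 of the 6 fits. Without A2 and C2 it was 1.20 (unadjusted p = 0.0817). The next member by p was Nop14, at 0.58 ± 0.34 (SE, unadjusted p = 0.130, adjusted p = 1, limma), with 14.5 and 19.3, 15.5 and 14.1, and 19.0 and 27.1 FPKM in pairs A, B and C. Without C2 its fold change was 0.34.

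**Figure D4:**
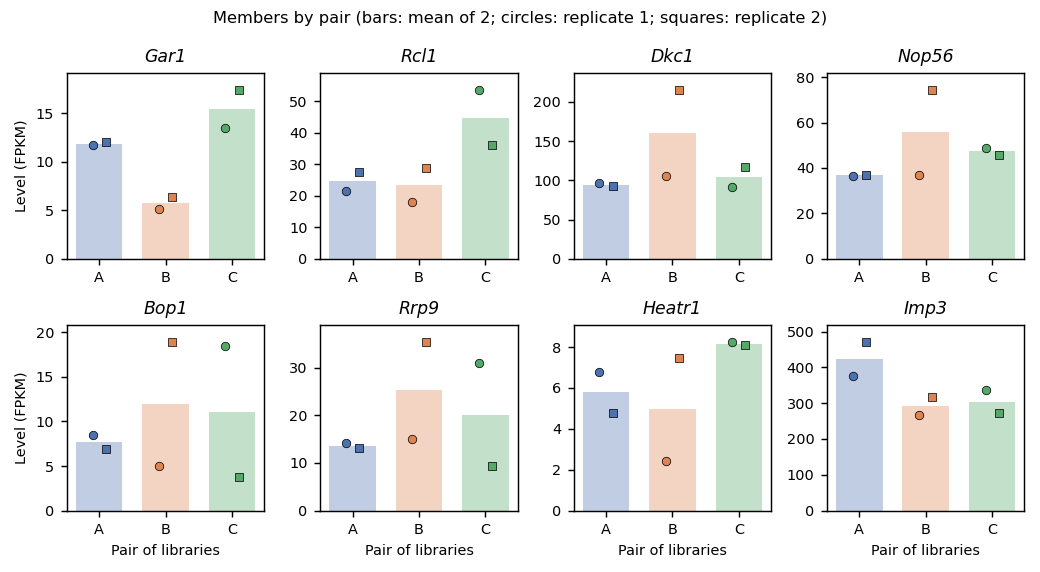
Level in FPKM of 8 members in each pair, with bars at the mean of 2 libraries, circles for replicate 1 and squares for replicate 2. Gar1 is lowest in both libraries of pair B (5.07 and 6.35) and Rcl1 highest in both of pair C (53.5 and 36.1), whereas Dkc1, Nop56, Bop1 and Rrp9 differ more within pair B than between the pair means.

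Pair C was compared with pair A, which by the annotation sets R62D against non-injected embryos and by the titles non-injected embryos against Wt. No gene passed the adjusted threshold in limma (0% of 13443), the smallest adjusted p being 0.344, and at an unadjusted p below 0.05 there were 0 members against 3.01% of all genes (1.67% higher and 1.34% lower). The pairs did not overlap for 11 members, or 28.2%, against 26.9% of all genes. Pair C was the higher for Nop56, Gar1, Nolc1, Ddx21, Heatr1, Rcl1, Tsr1, Nop2, Rrs1 and Rrp1, which is 25.6% of the members against 16.5% of all genes. It was the lower for Imp3, where 10.4% of all genes were lower. The median log2 fold change was 0.17 over the members and 0.06 over all genes, and 28 of 39 were above 0, against 56.5% of all genes (23 of 39 with libraries scaled to 1 median, 24 with quantile normalization). Rcl1 had the lowest p, at 0.83 ± 0.37 (SE, 95% interval -0.05 to 1.70, unadjusted p = 0.0606, adjusted p = 1, limma). Imp3 followed at -0.47 ± 0.28 (SE, unadjusted p = 0.130, adjusted p = 1, limma) and Nolc1 at 0.42 ± 0.33 (SE, unadjusted p = 0.245, adjusted p = 1, limma). With 1 library left out, Rcl1 was lowest at 0.55 without C1, Imp3 ran from -0.64 to -0.31 without A2, and Nolc1 from 0.28 to 0.55; without A2 and C2, Imp3 was at -0.16. Gar1, at 0.35 ± 0.34 (SE), had an interval of -0.44 to 1.14, which leaves room for a difference in either direction.

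Pair B was compared with pair A, which by the annotation sets wild-type actin against non-injected embryos and by the titles R62D against Wt. No gene passed the adjusted threshold in limma (0% of 13443), the smallest adjusted p being 0.334. At an unadjusted p below 0.05, 1 member was lower in pair B (Gar1) and 0 higher, against 1.79% and 2.77% of all genes, or 4.57% together. Without B1 the counts were 0 lower and 3 higher (Nop56, Dkc1 and Rrp1), and without A1 or without A2 they were 0 and 0. The pairs did not overlap for 10 members, or 25.6%, against 31.7% of all genes. Pair B was the higher for Nop56, Dkc1, Imp4, Utp14a, Rrp9, Nob1 and Rrs1 (18.0% of members against 18.8% of all genes), and the lower for Nhp2, Gar1 and Imp3 (7.69% against 12.8%). The median log2 fold change was 0.07 over the members (0.33 without B1 and -0.10 without B2) and 0.07 over all genes, and 24 of 39 were above 0, against 55.1% of all genes (16 of 39 with libraries scaled to 1 median, 12 without B2 and 15 without A1). For Gar1 it was -0.94 ± 0.34 (SE), with a 95% interval of -1.73 to -0.15, an unadjusted p of 0.0256 and an adjusted p of 0.991 in limma. It ran from -1.08 to -0.80 with 1 library left out, with an unadjusted p below 0.05 in 3 of the 6 fits, and was -0.92 without A2 and C2 (unadjusted p = 0.114). Imp3 was at -0.52 ± 0.28 (SE, unadjusted p = 0.0984, adjusted p = 0.991, limma) and Dkc1 at 0.67 ± 0.38 (SE, unadjusted p = 0.120, adjusted p = 0.991, limma). With 1 library left out, Imp3 ran from -0.69 to -0.36, and Dkc1 from 0.16 without B2 to 1.18 without B1 (unadjusted p = 0.0134, limma). The 3 comparisons share their pairs, so the values of Gar1 in them are not separate observations.

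**Figure D5:**
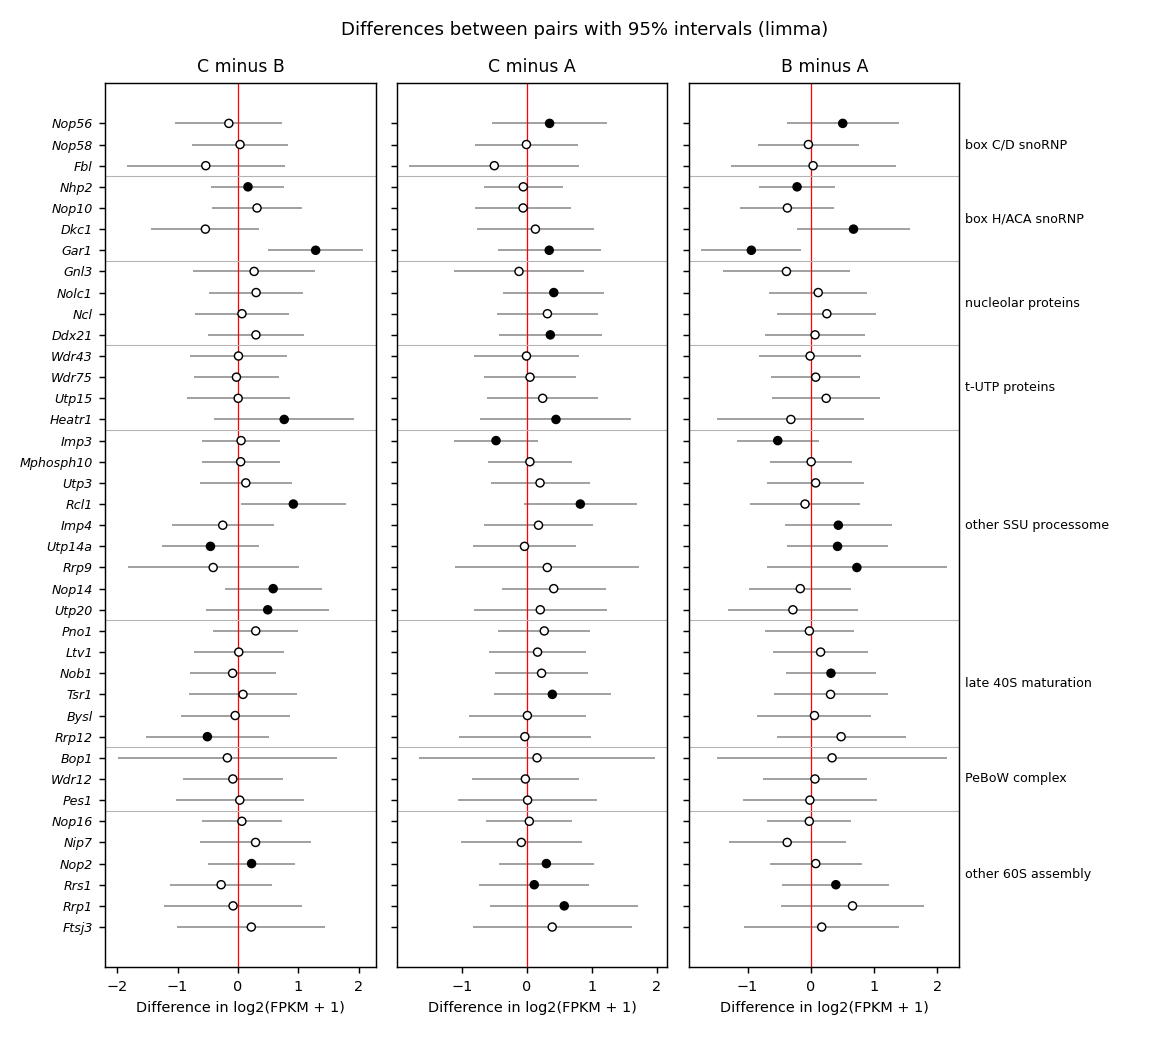
Difference between pairs in log2(FPKM + 1) for each member, with 95% intervals from limma, in the 3 comparisons. Filled points mark members whose pairs do not overlap (9, 11 and 10 of 39). These are 23.1%, 28.2% and 25.6% of the members, against 30.2%, 26.9% and 31.7% of all genes. The intervals span 0 except those of Gar1 in C minus B and B minus A and of Rcl1 in C minus B.

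The rest of the pathway was read from a list of 126 symbols for other small and large subunit factors, snoRNP assembly factors and RNA polymerase I with its factors, of which 117 were in the table and 114 were tested. None passed the adjusted threshold in limma in any comparison. At an unadjusted p below 0.05 there were 0 for pair C against B, 1 for pair C against A (Naf1, lower) and 2 for pair B against A (Naf1 and Twistnb, both lower). These are 0%, 0.877% and 1.75% of the list, against 3.85%, 3.01% and 4.57% of all genes. The median log2 fold changes of the list were 0.13, 0.09 and 0.02 in these comparisons. Values above 0 were found for 77, 74 and 61 of the 114, or 67.5%, 64.9% and 53.5%, against 49.9%, 56.5% and 55.1% of all genes.

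Twistnb, a subunit of RNA polymerase I, measured 27.0 and 24.0 FPKM in pair A, 11.4 and 14.6 in pair B, and 21.1 and 20.5 in pair C. Pair B was the lowest and pair A the highest, without overlap, from 74 to 169 reads a library. The log2 fold change of pair B over pair A was -0.93 ± 0.31 (SE), with an unadjusted p of 0.0199 and an adjusted p of 0.991 in limma. With 1 library left out, the unadjusted p was below 0.05 in 4 of 6 fits, and without A2 and C2 it was 0.0708 at a fold change of -1.01.

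Naf1, the assembly factor that precedes Gar1 in the box H/ACA particle, was singled out after its values were seen, since it lies under 5 FPKM. It measured 4.85 and 6.36 FPKM in pair A, 2.04 and 2.16 in pair B, and 1.45 and 0.891 in pair C, from 15, 22, 8, 8, 7 and 2.5 reads. Pair A was above the other 4 libraries, an order unlike that of Gar1, for which pair C was the highest. The log2 fold change was -1.61 ± 0.42 (SE) for pair C over pair A, with an unadjusted p of 0.00595 and an adjusted p of 1 in limma. For pair B over pair A it was -1.08 ± 0.42 (SE, unadjusted p = 0.0353, adjusted p = 0.991, limma). How the Naf1 fold changes move with 1 library left out, or without A2 and C2, was not examined.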

How the data were processed

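RNA was measured in pools of 5 embryos with 13 PCR cycles, ERCC spike-ins (diluted 1:40000), Nextera XT libraries and paired reads of 50 and 25 bases, per the labels' protocols. Trimmomatic, Trim Galore, cutadapt, STAR, featureCounts and the build mm10 are named, without versions, per the submitters' processing notes; for annotation and strand the sources used here give nothing. The authors deposited FPKM values with a length per gene. FPKM times length gave reads in multiples of 0.01, with 55.6% to 57.9% of values whole (tolerance 0.001 read), so shared reads were counted as fractions; 34 of 39 members had fractional reads in at least 1 library.

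Values were taken as log2(FPKM + 1), which understates changes of low genes, for genes averaging 1 FPKM or more. limma 3.58.1 (R 4.3.3) fitted 1 mean to each pair over the 6 libraries (variance trend, Benjamini-Hochberg adjustment over 13443 genes, threshold 0.05). Members and lists were chosen with earlier results of these data known. All members are named; a fold change with its p is given for an unadjusted p below 0.05 or the 3 lowest in a comparison, and for pathway genes averaging 5 FPKM or more with an unadjusted p below 0.05. Alternatives were a pseudocount of 0.1, other filters, median scaling, quantile normalization, no trend, pairs fitted alone, a replicate block, 1 library left out and, added after the data were seen, limma-voom on recovered reads and no A2 and C2.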

Additional observations from a re-analysis of the deposited data

How the results depend on the processing

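No member passed the adjusted threshold of 0.05 in any comparison under any alternative run, the smallest adjusted p of a member being 0.775. Over all genes, 1 was called in pair C against pair B at a pseudocount of 0.1 (Igkv13-87, no member, log2 fold change -8.16, adjusted p = 0.0342, limma), and 0 under every other alternative; the gene was named because it is the only one, and it is at 0 in both C libraries. The members' median log2 fold change ran from -0.083 to 0.33 in pair C against B (0.33 without B2), from 0.06 to 0.27 in C against A and from -0.10 to 0.33 in B against A (0.33 without B1) with 1 library left out. It changed sign in C against B without B1 (-0.083) and without C1 (-0.016), and in B against A without B2 (-0.10) and without A1 (-0.059) or with median scaling (-0.034). Scaling or quantile normalization turned the sign of 1 to 2, 4 to 5 and 5 to 8 members in the same order, and leaving out A2 and C2 that of 11, 13 and 11. With the replicate number as a replicate block, the members' medians were 0.05, 0.17 and 0.07 and no member was called; deviations of same-numbered libraries correlated at 0.10, 0.20 and 0.005 (A and B, A and C, B and C), so a pairing by number was not established, although A2 and C2 stood together on the first principal component and had the highest correlation between libraries (0.923). At an unadjusted p below 0.05, members higher in C against B numbered 2, and 0 to 3 under the alternatives, those higher in B against A 0, and 0 to 3, and all genes 518 (274 to 936), 405 (151 to 778) and 614 (287 to 1027) in the 3 comparisons. Low reads limit Fbl, Bop1, Rrp12 and Gar1 most, with 7 to 11 reads in the lowest library. Fold changes of Imp3, Nop56, Pes1, Fbl and Wdr12 are uncertain where near-identical copies share reads.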
